A study of Homo sapiens with 17 samples.

Results

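Genes named ZNF and a number, located on chromosome 19, were followed through a BET bromodomain inhibitor experiment in diffuse midline glioma cells. The rule took the protein-coding genes of GENCODE 44 on that chromosome with such a symbol. Of 240 such genes, all 240 were in the expression table and 220 averaged 10 or more normalized counts across the 12 libraries. These 220 genes are described here as the chromosome 19 ZNF genes, among 15599 genes that passed the same minimum and were tested. The cells were SF8628, an established diffuse intrinsic pontine glioma line carrying the histone H3 K27 mutation of these tumors, grown as a monolayer. They received the solvent DMSO for 24 hours (3 libraries) or 48 hours (3 libraries), or 1 µM AZD5153 for 24 hours (3 libraries) or 48 hours (3 libraries). AZD5153 blocks the bromodomains of the BET family, readers of acetylated histones that help RNA polymerase II transcribe. The comparison asks how RNA levels of this gene family moved with the inhibitor at each time. Nothing in the labels says whether the 3 libraries of a group came from separate cultures, so p-values measure the spread between these libraries. All cells were of 1 line, and the histone acetylation profiles of the series were not analysed here.

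Most genes of this family encode proteins with a row of C2H2 zinc fingers, each finger a short fold around a zinc ion that contacts a few bases of DNA. Many also carry a KRAB domain, which binds TRIM28, and TRIM28 in turn brings SETDB1 and HP1 proteins (CBX1, CBX3 and CBX5) that make and read the repressive histone mark H3K9me3. The family is known for silencing retrotransposons. It grew by tandem duplication, so that neighbours on chromosome 19 are often close relatives, and its clusters are themselves known as H3K9me3-marked domains.

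Libraries held 15759148 to 27335220 reads assigned to genes. SF8628 identity was checked against glioma and neural markers: VIM (mean 19098 normalized counts in DMSO and 17000.4 in AZD5153), CD44 (5680 and 7128), CSPG4 (2510 and 653), NES (2022 and 651) and SOX2 (219 and 163) were present, GFAP was low (39.9 and 30.2), and OLIG2 was listed at 0 in all 12 libraries and PDGFRA averaged 2.7. Among markers of other cells, PTPRC, CD68 and EPCAM averaged 0.5 to 8.9, and CDH1 was at 44.5 in AZD5153 replicate 2 of 48 hours and at 0 in the rest, but the endothelial gene PECAM1 averaged 408 in DMSO and 36.9 in AZD5153 libraries, and VWF 71.5 and 20.9. The part of these markers in the results was not tested. One DMSO library at 24 hours, replicate 1, stood apart from the other 2 for several short ZNF genes, and values without it are given beside the results it moved most.

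Levels differed widely within the family. The 10th and 90th percentile of their means were 43.5 and 599.5 normalized counts. Per kilobase of exon, the highest was ZNF146 (chr19:36214602-36238771, plus strand, GRCh38), a protein made almost only of fingers, at 571 normalized counts per kilobase, followed by ZNF121 (359), ZNF787 (296), ZNF580 (231) and ZNF865 (203). Just above the minimum were ZNF878 (mean 10.9), ZNF793 (11.5) and ZNF600 (13.7), and just below it ZNF556 (9.72), ZNF20 (8.07) and ZNF671 (6.66). Of the 20 genes under the minimum, 7 lay in the sub-cluster that holds ZNF91, and 4 were listed at 0 in every library: ZNF729, ZNF99 and ZNF723 of that sub-cluster, and ZNF536. As a share of a library, the 220 genes took 0.279% to 0.299% of reads in DMSO at 24 hours, 0.285% to 0.290% in AZD5153 at 24 hours, 0.291% to 0.298% in DMSO at 48 hours and 0.260% to 0.262% in AZD5153 at 48 hours. Summed normalized counts gave another order, because they are set relative to the size factors: 54193 to 57566 against 60260 to 61059 at 24 hours, where the groups did not overlap, and 54199 to 55892 against 54672 to 55326 at 48 hours, where they did.

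At 24 hours, more chromosome 19 ZNF genes rose than fell. With limma on log2(normalized count + 1), 80 of 220 (36.4%) were higher and 43 (19.5%) lower in AZD5153 at an adjusted p under 0.05, against 33.9% higher and 34.6% lower over all genes tested. Their median log2 fold change was 0.16, against 0.00 over all genes. The share that rose was thus near the background, and the share that fell was below it. Among 4804 other protein-coding genes between the 10th and 90th percentile of the family's means, 29.6% rose and 43.5% fell (median −0.15), and of the 176 family members inside that range 37.5% rose and 20.5% fell (median 0.17). ZNF genes of other chromosomes went the other way, with 58 of 217 higher and 89 lower (median −0.13). Other protein-coding genes of chromosome 19 had 248 of 706 higher and 202 lower (median 0.08), and 19 chromosome 19 genes with other zinc finger symbols (such as ZFP, ZSCAN and ZIK) had 8 higher and 3 lower (median 0.26).

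At 48 hours the family was nearly balanced. Higher were 62 (28.2%) and lower 51 (23.2%), against 33.1% and 33.9% over all genes tested, and the median was 0.03 against 0.00. Like-expressed protein-coding genes had 27.2% higher and 43.9% lower (median −0.19), the ZNF genes of other chromosomes 45 higher and 96 lower (median −0.15), and the other genes of chromosome 19 had 200 higher and 272 lower (median −0.11). Of the 176 family members in the range of like-expressed genes, 30.7% were higher and 19.9% lower (median 0.08). The 19 chromosome 19 genes with other zinc finger symbols had 8 higher and 6 lower (median 0.14). The share of family calls that were increases was 65.0% at 24 hours and 54.9% at 48 hours, and it moved with the scaling between libraries: it was 54.9% and 36.0% when libraries were set to equal totals, and 77.9% and 78.9% after quantile normalization. Equal totals moved the median of all genes to −0.12 at 24 hours and −0.17 at 48 hours. Relative to the all-gene median of the same scaling, the family's median lay 0.16 to 0.25 higher at 24 hours and 0.03 to 0.21 higher at 48 hours over 5 scalings. Relative to like-expressed genes the gap was 0.30 to 0.32 and 0.22 to 0.25.

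**Figure D1:**
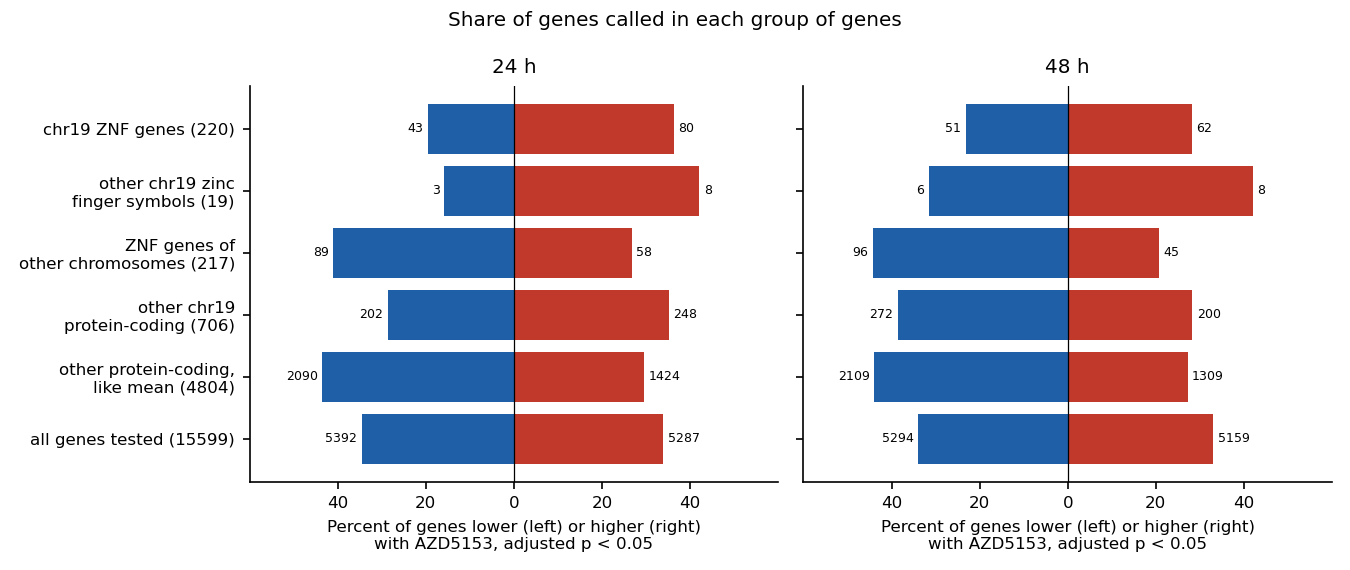
Percent of genes higher (red, right) or lower (blue, left) with AZD5153 at 24 hours and 48 hours (limma, adjusted p under 0.05) in 6 groups of genes, with the number of genes tested in parentheses and the number called beside each bar. The chromosome 19 ZNF genes have the bar to the left shorter than all genes tested at both times (19.5% and 23.2%).

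The genes fell into 16 sub-clusters along chromosome 19 when a gap of more than 1 Mb separated one from the next, and 9 of these had at least 3 genes tested and held 213 of the 220. Of the 9 medians, 7 were above 0 at 24 hours. The exceptions were the small ZNF302 to ZNF792 sub-cluster (34.68 to 34.96 Mb), with 5 genes and a median of −0.07, and the large sub-cluster of ZNF91 and its relatives, from ZNF101 to ZNF254 (19.67 to 24.13 Mb), with 30 genes, 7 higher, 14 lower and a median of −0.35. The highest medians were those of ZNF653 to ZNF791 (11.48 to 12.64 Mb), where 8 of 20 genes rose and 1 fell (median 0.36), and ZNF557 to ZNF846 (7.07 to 9.79 Mb), where 8 of 14 rose and 1 fell (median 0.29). Elsewhere on the long arm, 9 of 24 rose and 4 fell from ZNF575 to ZNF296 (43.53 to 45.08 Mb), 18 of 38 rose and 4 fell from ZNF175 to ZNF331 (51.57 to 53.58 Mb), and 18 of 55 rose and 9 fell from ZNF628 to ZNF446 (55.48 to 58.48 Mb), with medians of 0.19, 0.18 and 0.15. ZNF565 to ZNF573 (36.18 to 37.82 Mb) had 9 of 24 higher and 5 lower (median 0.16). Against 33.9% higher and 34.6% lower over all genes tested, these shares were 23.3% and 46.7% in the ZNF91 sub-cluster, 57.1% and 7.14% from ZNF557 to ZNF846, 40% and 5.0% from ZNF653 to ZNF791, 47.4% and 10.5% from ZNF175 to ZNF331, and 37.5% higher in each of the sub-clusters of 24. From ZNF628 to ZNF446 the share that rose (32.7%) was at the background and the share that fell (16.4%) below it. In the sub-clusters of 24, the share that fell was 16.7% from ZNF575 to ZNF296 and 20.8% from ZNF565 to ZNF573. Like-expressed protein-coding genes had 29.6% higher and 43.5% lower (median −0.15), and 41.0% of ZNF genes of other chromosomes fell. The share that fell in the ZNF91 sub-cluster was thus near that of both groups.

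At 48 hours ZNF653 to ZNF791 had 10 of 20 genes higher (50.0%) and 0 lower (median 0.28), against 33.1% and 33.9% over all genes tested. It was the only one of the 9 larger sub-clusters with a median above 0.2. Its increases at both times, and those of the family, include ZNF878, which passed the minimum of 10 only through its AZD5153 libraries. At 24 and 48 hours ZNF878 averaged 5.88 and 5.14 in DMSO and 14.9 and 17.7 in AZD5153. ZNF557 to ZNF846, high at 24 hours, had 3 higher and 3 lower (21.4% each, median 0.01), and ZNF628 to ZNF446 12 and 12 (21.8% each, median 0.03). The ZNF91 sub-cluster had 6 higher (20.0%, and 3 genes without DMSO replicate 2 of 48 hours) and 14 lower (46.7%, median −0.32). Like-expressed genes had 43.9% lower (median −0.19), so its share that fell was near theirs. ZNF302 to ZNF792 had 1 higher and 3 lower of 5 (median −0.40). Where other protein-coding genes lay between the ZNF genes, they did not share a sub-cluster's median in every case: 24 such genes within ZNF557 to ZNF846 had a median of 0.64 at 24 hours and 0.41 at 48 hours, but 19 within ZNF575 to ZNF296 had −0.23 and −0.72, with 10 and 11 of them lower. Next-door neighbours were called in the same direction about as often as other genes of the chromosome. Of 205 pairs of adjacent family members within a sub-cluster, both genes were called at 24 hours in the same direction in 37 and in opposite directions in 25, and at 48 hours 31 in the same and 24 in opposite directions. Adjacent pairs of other protein-coding genes of the chromosome had 158 and 122 at the earlier time, then 181 and 135. The same direction thus made up 59.7% and 56.4% of the family pairs with both called, and 56.4% and 57.3% of the other pairs.

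**Figure D2:**
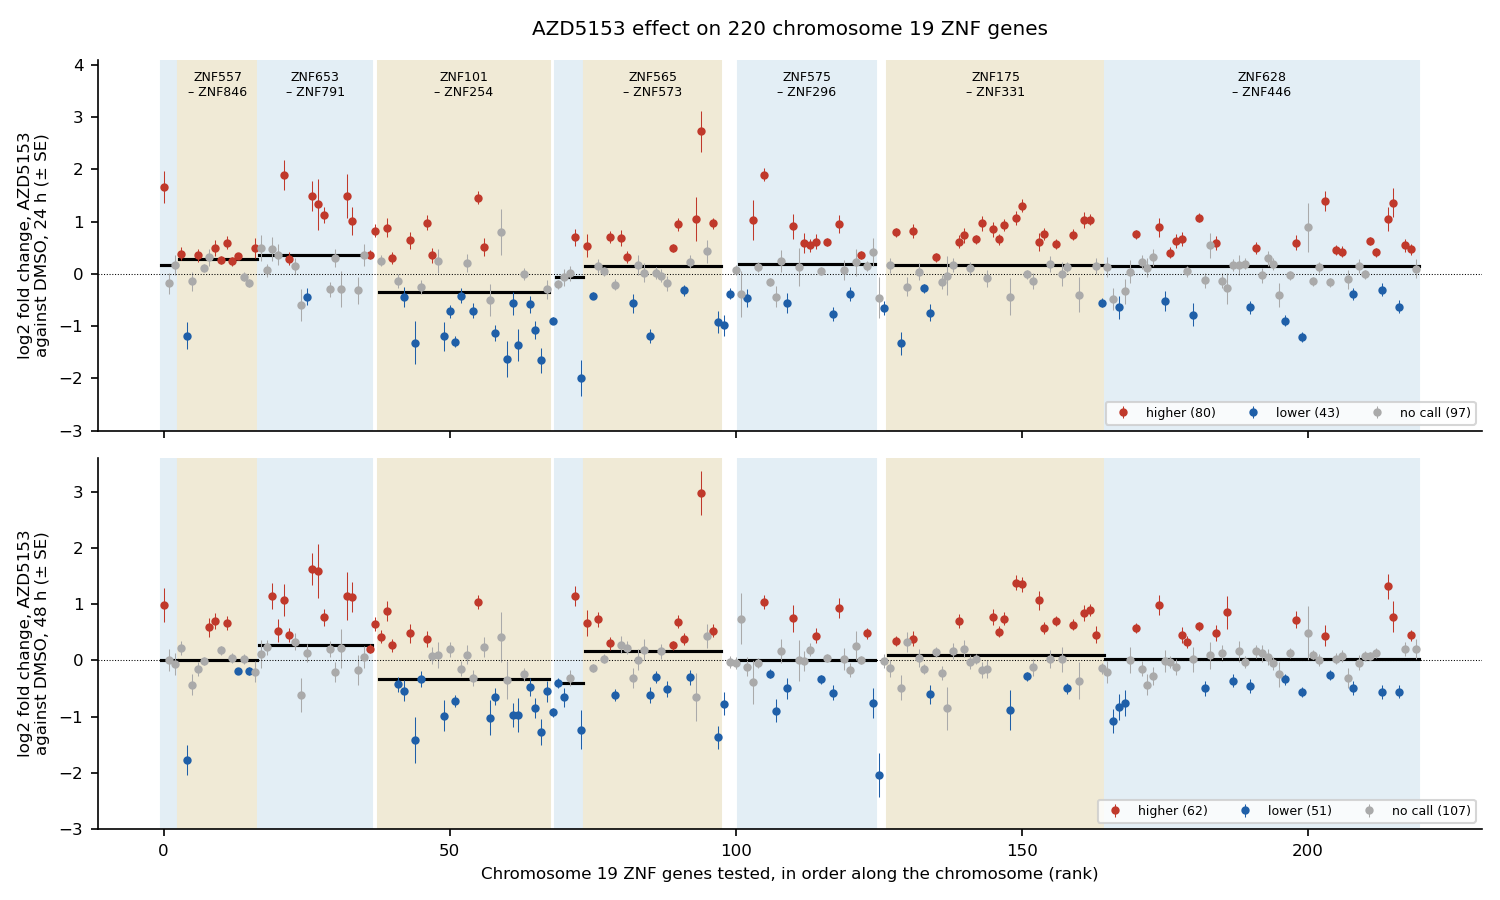
Log2 fold change (± SE) of AZD5153 against DMSO at 24 hours (top) and 48 hours (bottom) for the 220 chromosome 19 ZNF genes in order along the chromosome, red where higher, blue where lower and gray where not called. Shading marks the 9 sub-clusters with 3 or more genes tested and black bars their medians, of which that of ZNF101 to ZNF254 lies lowest at 24 hours (−0.35).

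The ZNF91 sub-cluster is the primate-expanded part of the family. ZNF91 itself, known to silence SVA retrotransposons, read 487, 361 and 351 normalized counts in DMSO and 416, 408.5 and 359.8 in AZD5153 at 24 hours, and 412, 391 and 384 against 339, 313 and 347 at 48 hours. The groups overlapped at 24 hours (log2 fold change −0.01 ± 0.12, adjusted p = 0.97) and did not at 48 hours, where the test was not passed (−0.25 ± 0.12, adjusted p = 0.069). Several of its neighbours fell. ZNF714 (chr19:21082159-21125270, plus strand) read 1071, 899 and 776.5 in DMSO and 365, 343 and 403 in AZD5153 at 24 hours (−1.29 ± 0.10, adjusted p = 1.7e-08), and 705, 665 and 653 against 389, 430.3 and 406 at 48 hours (−0.72 ± 0.10, adjusted p = 1.4e-05). Every AZD5153 library was below every DMSO library at both times, and the DMSO level itself was lower at 48 hours. ZNF43 (chr19:21804946-21852125, minus strand) read 291, 249 and 197 against 102, 99.3 and 133 at 24 hours (−1.13 ± 0.16, adjusted p = 1e-05) and 208, 182 and 173 against 123, 116 and 118 at 48 hours (−0.65 ± 0.16, adjusted p = 0.0018), again with no overlap.

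ZNF681 read 158, 121 and 161 against 67.0, 70.6 and 68.5 at 24 hours (−1.07 ± 0.18, adjusted p = 6.5e-05) and 94.6, 113.5 and 100.4 against 48.3, 53.2 and 71.0 at 48 hours (−0.84 ± 0.18, adjusted p = 0.0006). ZNF726, the gene of the sub-cluster with the largest average effect, read 82.3, 71.9 and 56.2 against 22.8, 20.5 and 20.8 at 24 hours (−1.65 ± 0.23, adjusted p = 1.2e-05) and 69.4, 62.1 and 46.4 against 24.6, 25 and 21.4 at 48 hours (−1.27 ± 0.23, adjusted p = 0.00017). Both fell with no overlap between the groups at either time. ZNF724 read 115, 85.4 and 68.6 against 26.8, 33.8 and 41.6 at 24 hours (−1.36 ± 0.30, adjusted p = 0.00094). Of the 100-base words of its transcript, 51.5% also occur in other annotated transcripts, so its reads are uncertain. ZNF724 (mean 55.4) reached the minimum mean set for naming the largest decreases only through its DMSO libraries, which bears on its rank among them. Its means at 24 and 48 hours were 89.7 and 64.0 in DMSO, and 34.1 and 33.9 in AZD5153. ZNF93, which silences LINE-1 elements, was lower too, with 127, 112 and 118 against 74.8, 108 and 66.7 at 48 hours (−0.54 ± 0.19, adjusted p = 0.02), while the 24-hour value (−0.44 ± 0.19, adjusted p = 0.05) lay at the threshold, a call lost in 15 of the alternatives.

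Other members of the same sub-cluster rose. ZNF493 (chr19:21397119-21427577, plus strand) read 149, 116 and 115 in DMSO and 367, 315 and 361 in AZD5153 at 24 hours (1.46 ± 0.12, adjusted p = 2.4e-08), and 168, 176 and 165 against 355, 323 and 372 at 48 hours (1.03 ± 0.12, adjusted p = 1.3e-06). ZNF737, singled out after its values were seen, read 174, 159 and 120.4 against 335, 286 and 269 at 24 hours (0.98 ± 0.15, adjusted p = 2.2e-05) and 149, 163 and 166 against 231, 214 and 180.5 at 48 hours (0.38 ± 0.15, adjusted p = 0.032). Neither overlapped between groups. The count of decreases depended on the less abundant genes. With a minimum mean of 100, 19 of its genes were tested, 7 higher and 7 lower at 24 hours (median −0.13), and 5 and 7 at 48 hours (median −0.15). The summed normalized count of the 30 genes was 4806 to 6319 in DMSO and 4544 to 4933 in AZD5153 at 24 hours, which overlapped, with DMSO replicate 1 the highest at 6319, and 4604 to 4908 against 4331 to 4419 at 48 hours, which did not. Without DMSO replicate 1 of 24 hours the 24-hour median was −0.26, and without replicate 3 it was −0.50. The genes higher at 24 hours numbered 4 without DMSO replicate 3 and 4 without AZD5153 replicate 3 of 24 hours. After quantile normalization the 48-hour median was −0.02, with 10 genes higher and 5 lower. At equal totals it was −0.495, with 2 higher and 16 lower. The 24-hour median at equal totals was −0.478, with 4 higher and 15 lower.

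**Figure D3:**
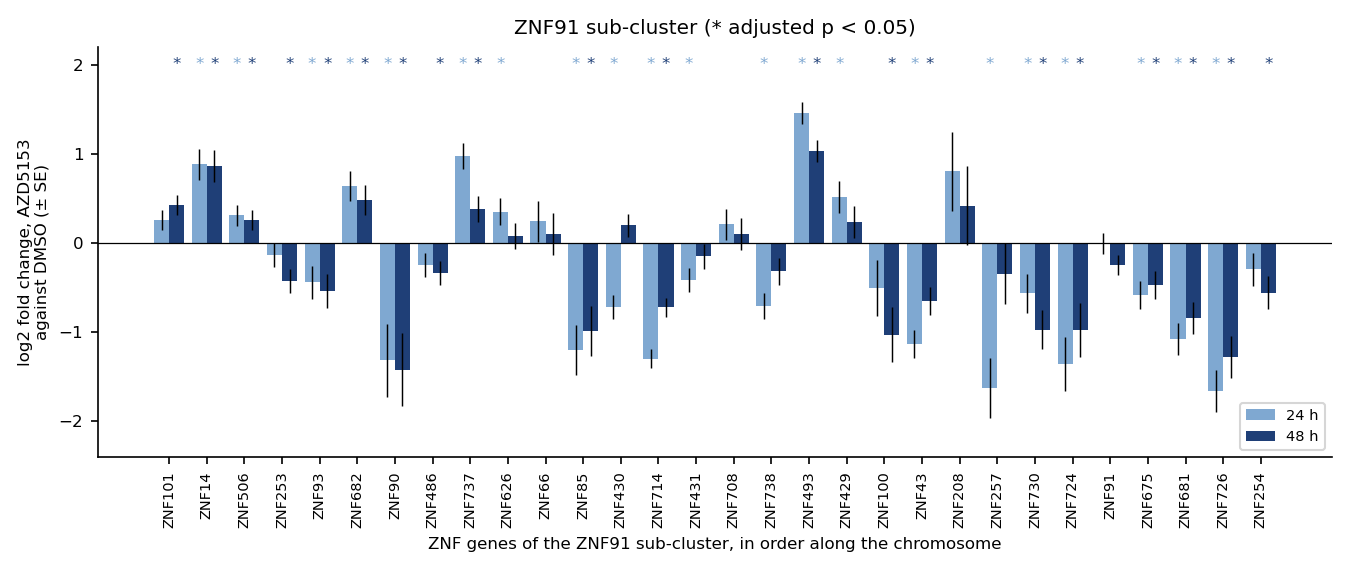
Log2 fold change (± SE) of AZD5153 against DMSO at 24 hours (light bars) and 48 hours (dark bars) for the 30 genes of the ZNF91 sub-cluster in order along the chromosome, with asterisks where the adjusted p was under 0.05. Rising genes such as ZNF493 (1.46 at 24 hours) stand between falling ones such as ZNF714 (−1.29).

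Promoters of this sub-cluster are shown because most of them share a spacing of motifs not found in the other family promoters searched, while the genes behind them moved in both directions. RefSeq starts (GRCh38.p14) matched 196 of the 220 genes, 27 of them in the ZNF91 sub-cluster, and each promoter runs from 250 bases before to 50 bases after the start. Pairs of promoters in the sub-cluster had a median identity of 78.3% over 300 bases after global alignment, against medians of 53.3% to 56.7% in the other 8 sub-clusters. CCAAT, the core of the NF-Y site, was found on either strand in all 27, in 43.8% of the other 169 and in 35.7% of all 27305 promoters of the table. CCGGAAG, an ETS core (CTTCCGG on the other strand), was found on either strand in 70.4% of the 27, 40.2% of the other 169 and 10.7% of all promoters. In 18 of the 27 (66.7%) exactly 29 bases lay between a CCAAT and a CTTCCGG on the strand of the gene, a spacing found in 0 of the other 169 and in 0.125% of all promoters. The spacing was not set in advance but chosen with these promoters in view, and they are alike in sequence, so the shares only describe them. The printed promoters read 5′ to 3′ on the strand of the gene, with CCAAT and CTTCCGG in capitals. The first 3 belong to genes that fell, the next 2 to genes that rose, and the last to ZNF91.
ZNF43 (chr19:21836133-21836432, minus strand): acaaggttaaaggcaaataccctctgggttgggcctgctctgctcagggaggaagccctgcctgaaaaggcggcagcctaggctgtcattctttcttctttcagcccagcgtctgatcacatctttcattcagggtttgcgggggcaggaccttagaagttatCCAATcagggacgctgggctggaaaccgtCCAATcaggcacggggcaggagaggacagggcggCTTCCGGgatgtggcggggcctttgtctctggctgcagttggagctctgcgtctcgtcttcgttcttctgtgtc
ZNF724 (chr19:23250345-23250644, minus strand): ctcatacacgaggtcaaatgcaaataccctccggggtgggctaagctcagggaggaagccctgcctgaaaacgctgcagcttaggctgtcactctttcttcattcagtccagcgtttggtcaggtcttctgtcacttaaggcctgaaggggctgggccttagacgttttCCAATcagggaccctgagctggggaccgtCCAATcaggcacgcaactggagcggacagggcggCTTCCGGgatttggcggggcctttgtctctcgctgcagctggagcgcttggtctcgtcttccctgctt
ZNF726 (chr19:23914636-23914935, plus strand): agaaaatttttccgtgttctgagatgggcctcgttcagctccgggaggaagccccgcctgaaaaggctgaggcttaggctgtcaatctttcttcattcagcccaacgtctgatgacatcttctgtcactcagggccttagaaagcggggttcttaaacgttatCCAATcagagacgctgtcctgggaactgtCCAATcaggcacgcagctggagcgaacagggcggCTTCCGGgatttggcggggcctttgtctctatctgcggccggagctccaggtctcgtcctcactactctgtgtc
ZNF493 (chr19:21396883-21397182, plus strand): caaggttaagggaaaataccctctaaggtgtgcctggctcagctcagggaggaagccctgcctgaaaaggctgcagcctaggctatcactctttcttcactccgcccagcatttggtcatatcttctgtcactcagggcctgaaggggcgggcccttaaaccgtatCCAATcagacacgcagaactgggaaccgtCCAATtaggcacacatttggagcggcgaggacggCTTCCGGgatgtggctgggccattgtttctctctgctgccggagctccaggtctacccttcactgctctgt
ZNF737 (chr19:20565732-20566031, minus strand): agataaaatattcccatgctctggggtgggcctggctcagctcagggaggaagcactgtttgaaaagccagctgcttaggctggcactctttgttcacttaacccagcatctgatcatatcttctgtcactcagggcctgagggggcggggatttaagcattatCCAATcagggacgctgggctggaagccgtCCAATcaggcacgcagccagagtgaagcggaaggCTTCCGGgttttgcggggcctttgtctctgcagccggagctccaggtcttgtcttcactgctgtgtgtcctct
ZNF91 (chr19:23395422-23395721, minus strand): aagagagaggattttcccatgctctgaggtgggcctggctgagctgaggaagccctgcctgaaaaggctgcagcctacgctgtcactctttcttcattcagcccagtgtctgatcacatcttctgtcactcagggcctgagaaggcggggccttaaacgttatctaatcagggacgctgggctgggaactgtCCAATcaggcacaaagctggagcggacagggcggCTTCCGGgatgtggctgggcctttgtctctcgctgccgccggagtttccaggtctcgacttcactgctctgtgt

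The promoter of ZNF493, which rose, was 77.7% identical to that of ZNF43 and 79.7% to that of ZNF724, which fell, and the promoter of ZNF91 was 81.7% identical to that of ZNF493 and 85.7% to that of ZNF726. Of the 18 genes with the shared spacing, 2 rose and 10 fell at 24 hours (median −0.53, from −1.65 to 1.46) and 2 rose and 10 fell at 48 hours (median −0.41). Of the 9 genes of the sub-cluster without it, 4 rose and 3 fell at 24 hours (median 0.25) and 3 and 3 at 48 hours (median 0.10). Over all genes tested the shares higher and lower were 33.9% and 34.6% at 24 hours and 33.1% and 33.9% at 48 hours, and the 9 genes lie near them. The 18 genes with the spacing had a smaller share higher and a larger share lower than all genes at both times. The layout is thus present in front of 2 genes that rose and 10 that fell at each time, and a match is a description of letters, not of a bound site.

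Among all chromosome 19 ZNF genes with a mean of at least 50, the largest increase at 24 hours was that of ZNF404 (chr19:43872365-43901385, minus strand). It read 67.6, 74.0 and 73.1 normalized counts in DMSO and 279, 257 and 272 in AZD5153 (log2 fold change 1.90 ± 0.12, adjusted p = 1.6e-09), and at 48 hours 174, 133 and 150.1 against 343, 288 and 305.5 (1.03 ± 0.12, adjusted p = 2.1e-06). The AZD5153 libraries were above the DMSO libraries at both times, and the DMSO level was itself higher at 48 hours. ZNF404 overlaps 3 tested genes, the most abundant on the same strand with a mean of 35.2, so its values are uncertain. ZNF491 of the ZNF653 to ZNF791 sub-cluster read 22.5, 30.6 and 16.0 against 87.2, 88.1 and 80.8 at 24 hours (1.89 ± 0.29, adjusted p = 2.5e-05) and 29.7, 51.4 and 22.7 against 62.9, 72.8 and 73.6 at 48 hours (1.07 ± 0.29, adjusted p = 0.0037). ZNF554, near the short-arm end, read 22.5, 35.6 and 12.5 against 68.4, 78.8 and 64.9 at 24 hours (1.66 ± 0.31, adjusted p = 0.00018) and 69.4, 62.9 and 37.8 against 105, 106.5 and 118 at 48 hours (0.99 ± 0.31, adjusted p = 0.01, a call lost without DMSO replicate 3 of 48 hours). In both genes the highest DMSO library was below the lowest AZD5153 library at each time. Both reached the mean of 50 only through their AZD5153 libraries, which bears on their rank among the increases. The DMSO means at 24 and 48 hours were 23.1 and 34.6 for ZNF491, and 23.5 and 56.7 for ZNF554.

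ZNF468 and ZNF28 rose at both times. ZNF468 (chr19:52838010-52857649, minus strand) read 155.5, 143 and 116 against 309.7, 379 and 338 at 24 hours (1.31 ± 0.13, adjusted p = 3e-07) and 129.7, 119.7 and 119 against 354, 279 and 317 at 48 hours (1.35 ± 0.13, adjusted p = 2e-07). ZNF28 (chr19:52797408-52857600, minus strand) read 219, 216 and 174 against 425, 366.5 and 489.6 at 24 hours (1.07 ± 0.13, adjusted p = 2.7e-06) and 134, 148 and 162 against 422, 345.5 and 396 at 48 hours (1.38 ± 0.13, adjusted p = 1.4e-07). The gene models of ZNF28 and ZNF468 overlap on the same strand, so how their shared reads were counted is uncertain. ZNF816 of the same sub-cluster rose by 0.60 ± 0.17, adjusted p = 0.0054 at 24 hours and 1.06 ± 0.17, adjusted p = 4.5e-05 at 48 hours.

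Further increases among the largest at either time were those of ZNF552, which read 39.4, 50.5 and 35.7 against 115, 111 and 105 at 24 hours (1.39 ± 0.19, adjusted p = 6.7e-06), and of ZNF837, which read 41.7, 89.7 and 95.4 against 227, 177 and 155 (1.36 ± 0.28, adjusted p = 0.0004, and 0.98 without DMSO replicate 1, the lowest). At 48 hours both were smaller and their calls were lost in several alternatives (0.44 ± 0.19, adjusted p = 0.048 for ZNF552, and 0.78 ± 0.28, adjusted p = 0.021 for ZNF837). ZNF497 read 52.2, 64.7 and 57.2 against 140.4, 134 and 164 at 48 hours (1.32 ± 0.23, adjusted p = 8.9e-05), with 34.9% of its 100-base words shared with other transcripts, 29.7% with the antisense gene A1BG-AS1. It overlaps 4 tested genes, the most abundant a gene without a symbol on the same strand with a mean of 135.5, above that of ZNF497 (84.1), so its values are uncertain. In the ZNF653 to ZNF791 sub-cluster, ZNF823 (1.15 ± 0.23, adjusted p = 0.0004), ZNF799 (1.12 ± 0.27, adjusted p = 0.0014), ZNF844 (0.76 ± 0.15, adjusted p = 0.00027) and the low-count ZNF433 (1.62 ± 0.28, adjusted p = 9.4e-05) were higher at 48 hours. ZNF799, with DMSO means of 39.2 and 26.5 at 24 and 48 hours, reached the mean of 50 only through its AZD5153 libraries. ZNF844, ZNF799 and ZNF433 were higher at 24 hours too, with log2 fold changes of 1.13, 1.00 and 1.49. Of their 100-base words, ZNF844 shares 44.5% and ZNF799 28.2% with other transcripts, ZNF844 overlaps another gene on the same strand and ZNF433 overlaps ZNF433-AS1 (mean 35.4) on the opposite one, so these values are uncertain. ZNF823 did not pass the test at 24 hours (0.47 ± 0.23, adjusted p = 0.081), though it passed without DMSO replicate 1 of 24 hours (0.64). ZNF30 rose by 0.70 ± 0.17, adjusted p = 0.002 at 24 hours and by 1.15 ± 0.17, adjusted p = 2.1e-05 at 48 hours. ZNF540, a low-count gene, averaged under 10 in DMSO and passed the minimum only through its AZD5153 libraries. Its values are therefore given as a description, without a test or a rank, though it stays in the counts of genes higher at both times. It read 9.0, 3.6 and 11.6 in DMSO and 87.2, 38.9 and 46.5 in AZD5153 at 24 hours (log2 fold change 2.73). At 48 hours it read 6.3, 8.0 and 8.6 against 58.4, 71.7 and 70.2 (2.98). ZNF540 overlaps ZFP30 (mean 227) on the opposite strand, and the strand setting of the counting was not stated, so their reads may not be separable.

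**Figure D4:**
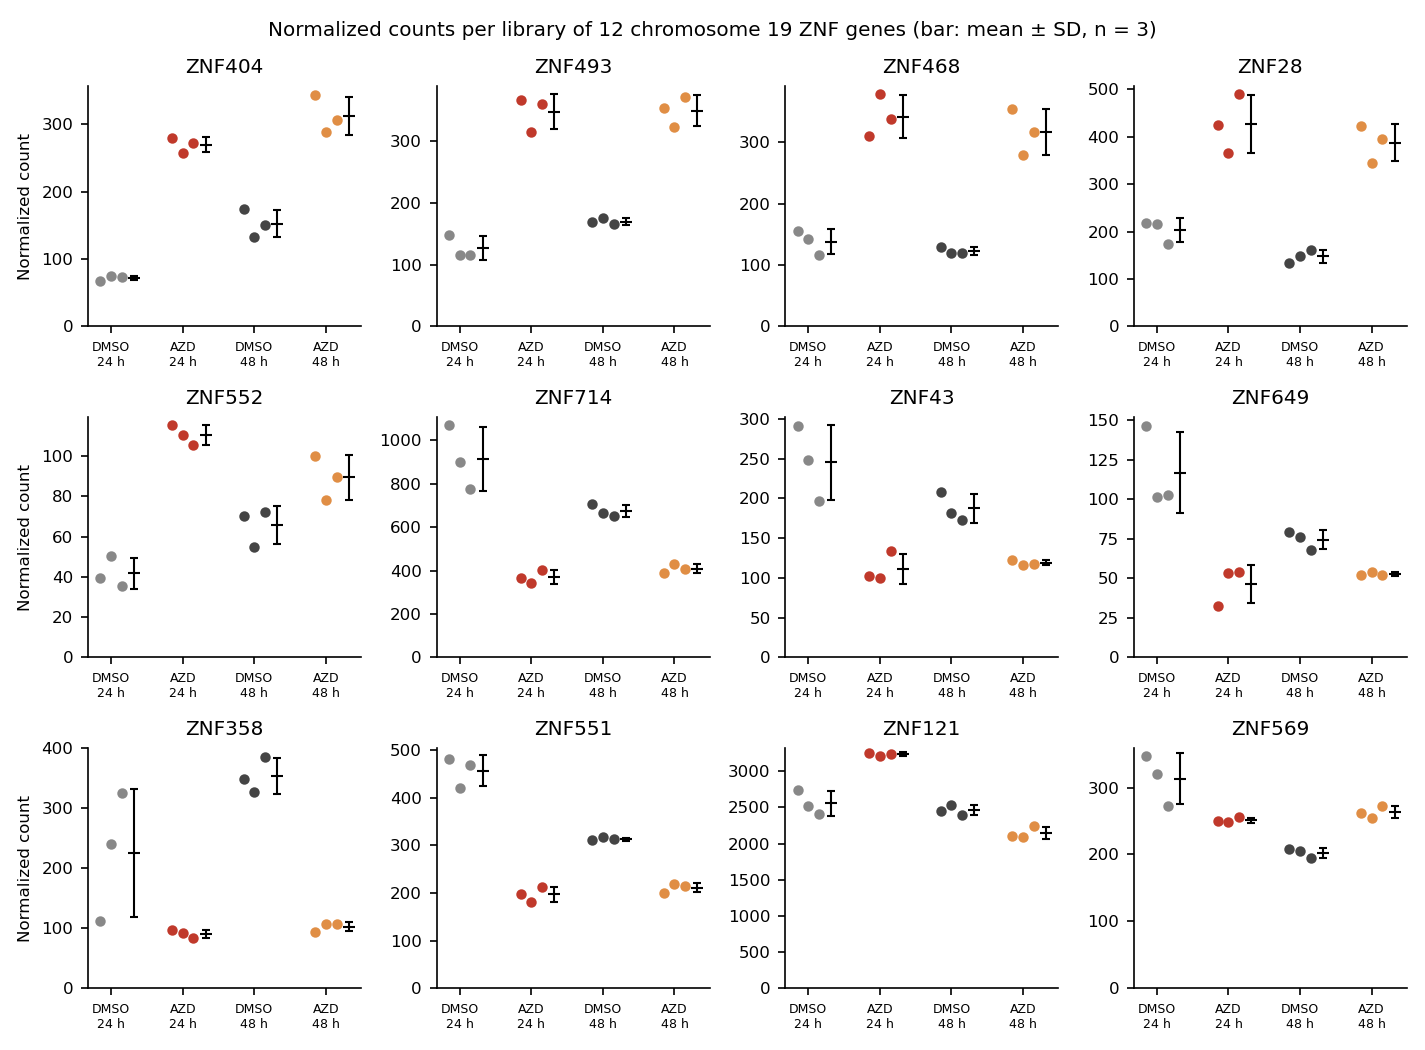
Normalized counts of 12 chromosome 19 ZNF genes in each of the 12 libraries (points, linear axis from 0), with the mean ± SD of each group of 3 beside them. The upper row and ZNF552 show genes whose AZD5153 libraries lie above DMSO, ZNF714 to ZNF551 genes whose AZD5153 libraries lie below, and ZNF121 and ZNF569 genes whose direction differs between 24 and 48 hours.

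Outside the ZNF91 sub-cluster, the decreases were scattered over the chromosome. ZNF649 (chr19:51889235-51905040, minus strand) read 146.5, 102 and 102.5 in DMSO and 32.2, 53.2 and 53.9 in AZD5153 at 24 hours (log2 fold change −1.33 ± 0.22, adjusted p = 5.4e-05), and 79.3, 76.2 and 68.0 against 52.0, 54.3 and 52.2 at 48 hours (−0.49 ± 0.22, adjusted p = 0.06). Its neighbour ZNF577, whose gene model overlaps it on the same strand and which was picked after its values were seen, rose from 249, 246 and 228 to 416, 417 and 422 at 24 hours (0.79 ± 0.09, adjusted p = 6e-07). The pair thus moved in opposite directions within one locus. ZNF227 and ZNF235, which overlap on opposite strands and were also picked afterwards, did likewise, with −0.77 ± 0.13, adjusted p = 7.7e-05 for ZNF227 and 0.95 ± 0.18, adjusted p = 0.00023 for ZNF235 at 24 hours. ZNF227 shares 18.5% of its 100-base words with transcripts of ZNF235, and how the overlapping reads of either pair were counted is uncertain.

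ZNF551 (chr19:57681969-57717301, plus strand) read 481, 419 and 467 against 198, 181 and 213 at 24 hours (−1.20 ± 0.10, adjusted p = 2e-08) and 309.9, 316.5 and 312 against 201, 219.5 and 214 at 48 hours (−0.56 ± 0.10, adjusted p = 9e-05). ZNF829 read 442, 362 and 360.2 against 149, 169 and 189.7 at 24 hours (−1.19 ± 0.14, adjusted p = 1.1e-06) and 232, 258 and 313 against 166, 191 and 163 at 48 hours (−0.62 ± 0.14, adjusted p = 0.00084). In both, the 2 groups were apart at each time, and the AZD5153 level was about the same at 24 and 48 hours while the DMSO level was lower at 48 hours. ZNF507, alone between sub-clusters, fell by a like amount at both times, with 1101, 1110 and 1040 against 593, 536.5 and 625.5 (−0.89 ± 0.08, adjusted p = 3.4e-08) and 977, 954 and 959.9 against 481, 490.0 and 551 (−0.93 ± 0.08, adjusted p = 2.1e-08). ZNF573 (−0.92 ± 0.21, adjusted p = 0.00096 at 24 hours and −1.37 ± 0.21, adjusted p = 2.3e-05 at 48 hours) and ZNF546 (−0.98 ± 0.20, adjusted p = 0.00049 and −0.77 ± 0.20, adjusted p = 0.0034) were lower at both times, as was ZNF792 of few counts (−1.99 ± 0.35, adjusted p = 9.9e-05 and −1.23 ± 0.35, adjusted p = 0.0053). ZNF221 passed the test at 48 hours (−0.90 ± 0.20, adjusted p = 0.00093) and not at 24 hours (−0.44 ± 0.20, adjusted p = 0.062), though it passed without DMSO replicate 1 of 24 hours (−0.56).

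For a set of genes the DMSO library of replicate 1 at 24 hours read far below the other 2. ZNF358 read 113, 239.9 and 325 in DMSO and 96.5, 92.1 and 83.2 in AZD5153 at 24 hours (−1.18 ± 0.26, adjusted p = 0.00081), and 349.5, 327 and 385.5 against 93.9, 106.5 and 108 at 48 hours (−1.77 ± 0.26, adjusted p = 1.7e-05). The fall was present in every library, but its size at 24 hours was −1.18 with that library and −1.62 without it. ZNF358 shares 22.8% of its 100-base words with other transcripts, so its values are uncertain. ZNF579 read 391, 749 and 858.5 against 465, 530.4 and 374.5 at 24 hours (−0.48 ± 0.21, adjusted p = 0.053) and 973, 895 and 875 against 487, 393 and 422 at 48 hours (−1.08 ± 0.21, adjusted p = 0.00028), ZNF865 420.4, 856 and 1148 against 601, 599 and 573 (−0.33 ± 0.23, adjusted p = 0.21) and 1068, 1059 and 993 against 620.0, 676 and 547 (−0.76 ± 0.23, adjusted p = 0.0087). ZNF787 read 712, 1355 and 1412 against 1299, 1301 and 1039 at 24 hours (0.12 ± 0.19, adjusted p = 0.58). ZNF524 was lower by the test at both times, with libraries that overlapped at 24 hours (−0.64 ± 0.23, adjusted p = 0.019 and −0.83 ± 0.23, adjusted p = 0.0041), and its 24-hour value was −0.92 without the library. ZNF428 read 31.6, 108 and 153 against 210.5, 166 and 132 at 24 hours (1.03 ± 0.38, adjusted p = 0.026), and without the library the value was 0.37 and the call was lost. With and without it, the values at 24 hours were −0.48 and −0.82 for ZNF579, −0.33 and −0.75 for ZNF865, and 0.12 and −0.20 for ZNF787, and ZNF579 and ZNF865 passed the test without the library. The 48-hour values use other DMSO libraries.

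Of 220 genes, 52 (23.6%) were higher at both times and 26 (11.8%) lower at both, against 26.0% and 27.1% over all genes tested. At 24 hours alone 27 were higher (12.3%, against 7.28% of all genes) and 16 lower (7.27% against 6.48%), at 48 hours alone 9 were higher (4.09% against 6.13%) and 24 lower (10.9% against 6.18%), and 64 were called at neither (29.1% against 19.2%). Across the 220 genes the effects at 24 and 48 hours had a Pearson r of 0.79 (Spearman rho 0.76), against 0.86 across all genes tested. The effects come from separate libraries, but genes are not independent replicates. The difference itself, the 48-hour effect minus the 24-hour effect, was called as higher for 9 genes (background 14.4%) and lower for 20 (background 10.1%). That split was 17 and 13 after quantile normalization and 14 and 11 when scaled to stably expressed genes. As shares, the 9 and 20 genes of the main fit were 4.09% and 9.09%. The counts depended on single libraries: 15 were higher without DMSO replicate 3 of 24 hours, 32 were lower without DMSO replicate 1 of 24 hours, and 13 were lower without AZD5153 replicate 2 of 48 hours.

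Of the 220 genes, 2 (0.909%) were called in opposite directions at the 2 times, against 1.62% of all genes tested. ZNF121, with the highest mean of the family (2599), read 2744, 2518 and 2407 in DMSO and 3255, 3204 and 3241 in AZD5153 at 24 hours (0.34 ± 0.06, adjusted p = 4.5e-05), but 2454, 2530 and 2394 against 2102, 2096 and 2242 at 48 hours (−0.20 ± 0.06, adjusted p = 0.005). The groups were apart at each time, and the difference of the effects was −0.54 ± 0.08, adjusted p = 0.00015. ZNF569 read 347, 320.3 and 272 against 249, 249 and 256 at 24 hours (−0.31 ± 0.10, adjusted p = 0.015, a call lost without DMSO replicate 1) and 208, 206 and 194 against 263, 254 and 273 at 48 hours (0.38 ± 0.10, adjusted p = 0.0046). There the AZD5153 level was steady and the DMSO level lower at 48 hours.

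Among genes that passed the test of the difference and averaged 50 or more, the largest downward was that of ZNF578, which read 84.5, 106 and 93.6 against 193, 187 and 175 at 24 hours and 142, 160.5 and 135 against 118, 127 and 143 at 48 hours (difference −1.14 ± 0.19, adjusted p = 0.00057). ZNF552 (−0.95 ± 0.26, adjusted p = 0.016), ZNF404 (−0.86 ± 0.18, adjusted p = 0.0024) and ZNF471 (−0.76 ± 0.19, adjusted p = 0.01) followed. ZNF471 read 116, 106 and 128 in DMSO at 24 hours and 260.3, 207 and 206 at 48 hours, and 161, 181 and 204 and 186, 213 and 218 in AZD5153, which lay above DMSO at 24 hours and overlapped it at 48 hours. Upward, ZNF430 of the ZNF91 sub-cluster differed most among those that passed: 294, 246 and 223 against 149, 154 and 158 at 24 hours, and 167, 155 and 181 against 222, 185 and 174 at 48 hours (difference 0.92 ± 0.19, adjusted p = 0.0022). ZNF473, the U7 snRNP protein of histone mRNA processing, read 282, 252 and 268 against 153, 193.5 and 165 at 24 hours (−0.65 ± 0.13, adjusted p = 0.00026) and 221, 199.5 and 172 against 211.5, 188 and 188 at 48 hours (−0.01 ± 0.13, adjusted p = 0.98), a difference of 0.65 ± 0.18, adjusted p = 0.015. For ZNF551 it was 0.64 ± 0.14, adjusted p = 0.0034. Among genes of few counts, ZNF114 read 31.6, 28.5 and 25.9 against 14.7, 33.8 and 17.1 at 24 hours and 21.6, 21.3 and 22.7 against 8.2, 3.3 and 3.4 at 48 hours (−2.04 ± 0.39, adjusted p = 0.00025 at 48 hours).

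In DMSO alone, 24 family genes were higher at 48 than at 24 hours (10.9%, background 16.4%) and 22 lower (10.0%, background 19.3%), a comparison that uses the same DMSO libraries as the drug effects. The split was 15 higher and 38 lower after quantile normalization, and 29 and 16 at equal totals. Without replicate 1, 2 or 3 of DMSO at 48 hours the count of increases was 15, 15 or 13. Among those averaging 50 or more, the largest increases with time were those of ZNF554 (1.30 ± 0.31, adjusted p = 0.0037), ZNF428 (1.13 ± 0.38, adjusted p = 0.031, and 0.47 without DMSO replicate 1 of 24 hours) and ZNF404 (1.07 ± 0.12, adjusted p = 1.2e-05), and the largest decreases those of ZNF30 (−0.68 ± 0.17, adjusted p = 0.0055), ZNF569 (−0.62 ± 0.10, adjusted p = 0.00028) and ZNF649 (−0.62 ± 0.22, adjusted p = 0.035, and −0.45 without that library, where the call was lost). In AZD5153, 4 were higher (background 15.8%) and 24 lower (background 13.8%) at 48 than at 24 hours, or 11 and 12 when scaled to stably expressed genes. Without DMSO replicate 1 of 24 hours, which enters only the shared spread, these were 8 and 37, and increases numbered 2 without replicate 2 or 3 of AZD5153 at 24 hours or replicate 1 or 3 at 48 hours.

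**Figure D5:**
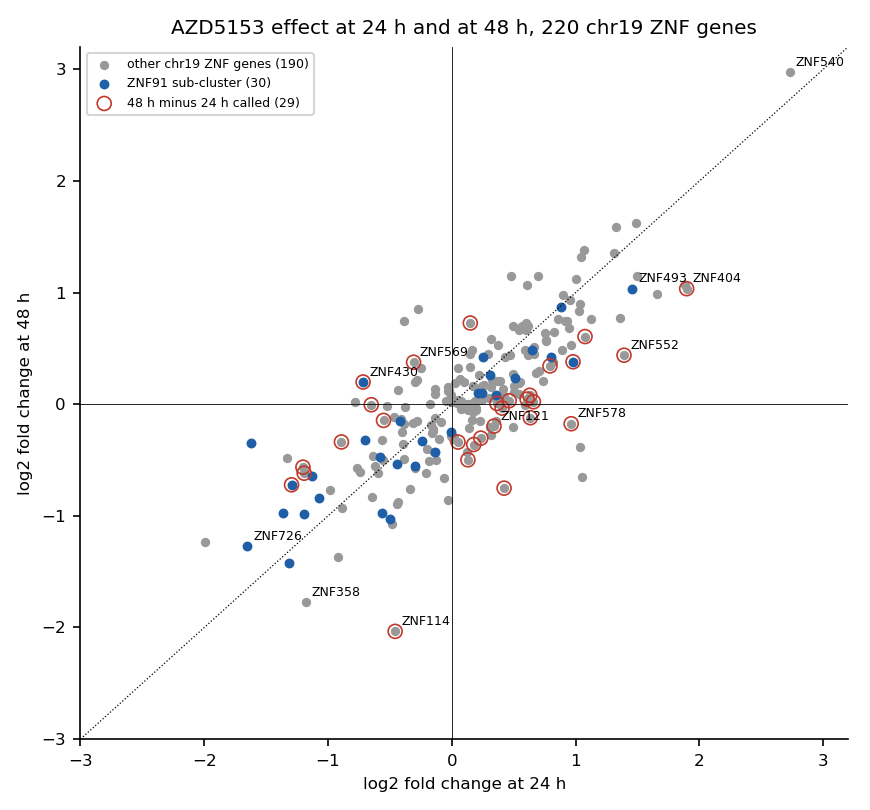
Log2 fold change of AZD5153 against DMSO at 24 hours (horizontal) and 48 hours (vertical) for the 220 chromosome 19 ZNF genes, with the 30 genes of the ZNF91 sub-cluster in blue and the 29 genes whose effect differed between times (adjusted p under 0.05) circled. Most points lie along the dotted line of equal effects (Pearson r of 0.79), and ZNF430, ZNF569, ZNF578 and ZNF114 lie well off it.

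Members with a described role moved in both directions. ZNF274, which recruits SETDB1 to the 3′ ends of other ZNF genes, read 496, 481 and 500.1 against 743, 783 and 761 at 24 hours (0.63 ± 0.07, adjusted p = 7.8e-07) and 509.8, 478 and 511 against 539.8, 541 and 503 at 48 hours (0.08 ± 0.07, adjusted p = 0.33). It rose at 24 hours with no overlap and the effects differed between times (−0.55 ± 0.10, adjusted p = 0.00087). ZNF350, a partner of BRCA1 also known as ZBRK1, read 94.7, 117 and 96.3 against 189, 173 and 179.9 at 24 hours (0.82 ± 0.13, adjusted p = 5.3e-05) and 111, 127 and 124 against 146, 153 and 174 at 48 hours (0.38 ± 0.13, adjusted p = 0.019). ZNF224, a repressor of the aldolase A gene, rose at 24 hours (0.55 ± 0.12, adjusted p = 0.0011), as did ZNF417 (0.42 ± 0.11, adjusted p = 0.0026) and ZNF587 (0.46 ± 0.10, adjusted p = 0.00052), near-identical genes that recognise HERV-K elements. None of these 3 passed at 48 hours (0.19 ± 0.12, 0.08 ± 0.11 and 0.03 ± 0.10). ZNF417 and ZNF587 share 23.5% and 36.0% of their 100-base words with other transcripts, and 47.4% of those of ZNF224 occur in an overlapping antisense gene, so these values are uncertain.

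ZNF331, an imprinted gene, fell at 24 hours, with 486, 427 and 406 against 319, 289.8 and 288 (−0.55 ± 0.09, adjusted p = 4.9e-05), and read 358, 355 and 362 against 325, 329 and 317 at 48 hours (−0.14 ± 0.09, adjusted p = 0.17). ZNF382 fell at 48 hours, with 260.3, 278 and 264.5 against 165, 185 and 174.5 (−0.61 ± 0.10, adjusted p = 6.8e-05), as did ZNF568 (−0.30 ± 0.11, adjusted p = 0.024, a call lost in 6 alternatives). ZNF420, a regulator of p53, did not pass at either time (−0.03 ± 0.13, adjusted p = 0.84 and 0.16 ± 0.13, adjusted p = 0.3). The abundant ZNF146 read 3272, 3009 and 2744 against 2219, 2162 and 2381 at 24 hours (−0.41 ± 0.07, adjusted p = 6.6e-05) and did not pass at 48 hours (−0.14 ± 0.07, adjusted p = 0.091), whereas ZNF580 rose at both (0.76 ± 0.09, adjusted p = 8.7e-07 and 0.57 ± 0.09, adjusted p = 2e-05) and its DMSO level was higher at 48 hours (623, 644.5 and 582) than at 24 hours (307, 305 and 363). The gene model of ZNF580 overlaps that of ZNF581 (mean 326.3) on the same strand, so how their shared reads were counted is uncertain. ZNF333, alone between sub-clusters, rose at both times (0.83 ± 0.12, adjusted p = 1.8e-05 and 0.65 ± 0.12, adjusted p = 0.0002). ZNF574 passed the test at 24 hours and not at 48 hours (−0.38 ± 0.10, adjusted p = 0.0045 and −0.03 ± 0.10, adjusted p = 0.84).

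Genes on a list of KRAB co-repressors and more general heterochromatin factors mostly fell. The list was chosen with earlier results of these data known, so its counts are a description. Of 33 co-repressor and heterochromatin genes, all tested, 5 rose and 24 fell at 24 hours (median −0.40), against 33.9% higher and 34.6% lower over all genes tested, and 5 rose and 18 fell at 48 hours (median −0.24), against 33.1% and 33.9%. At 24 hours 3 rose when libraries were set to equal totals. TRIM28, the scaffold, was among those that rose, from 12320 ± 1613 to 17840 ± 418.5 normalized counts at 24 hours (mean ± SD, n = 3, 0.54 ± 0.07, adjusted p = 5.2e-06) and from 9262 ± 436 to 16450 ± 132 at 48 hours (0.83 ± 0.07, adjusted p = 3.8e-08). SETDB1, the H3K9 methyltransferase, fell from 846 ± 71.1 to 629.9 ± 27.8 at 24 hours (−0.42 ± 0.08, adjusted p = 0.00015) and from 934 ± 33.3 to 706 ± 47.6 at 48 hours (−0.41 ± 0.08, adjusted p = 0.00023). The HP1 genes fell at 24 hours (CBX1 −0.34 ± 0.04, adjusted p = 4.7e-06, CBX3 −0.45 ± 0.04, adjusted p = 2e-07, and CBX5 −0.40 ± 0.04, adjusted p = 5.7e-07). At 48 hours CBX3 and CBX5 were lower (−0.24 ± 0.04, adjusted p = 0.00018, and −0.33 ± 0.04, adjusted p = 4.5e-06) and CBX1 did not pass the test (−0.10 ± 0.04, adjusted p = 0.054). The largest decreases were those of CHD3, a NuRD remodeler (−1.49 ± 0.07, adjusted p = 4.9e-11 at the earlier time, −2.65 ± 0.07, adjusted p = 7.6e-14 at the later), and of SUV39H1, another H3K9 methyltransferase (−2.41 ± 0.20, adjusted p = 1.9e-08 and −1.69 ± 0.20, adjusted p = 1.2e-06), and of UHRF1 (−1.85 ± 0.06, adjusted p = 6e-13 and −1.33 ± 0.06, adjusted p = 2.6e-11) and MTA3 (−1.63 ± 0.08, adjusted p = 5.5e-11 and −1.41 ± 0.08, adjusted p = 3e-10), all named after their values were seen.

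The encoded proteins had a median of 12 C2H2 fingers (1 to 36) in the canonical GENCODE translation. A pattern for the KRAB A box was found in 149 of the 220. Of these 149, 60 (40.3%) rose and 25 (16.8%) fell at 24 hours (median 0.19), against 33.9% and 34.6% over all genes tested. At 48 hours 49 (32.9%) rose and 34 (22.8%) fell (median 0.09), against 33.1% and 33.9%, so the share that rose was at the background. Of the 71 without a match, 20 rose and 18 fell at 24 hours (median 0.08), and 13 and 17 at 48 hours (median −0.01). ZNF224 and ZNF350 are known to carry the domain and did not match, so a missing match is not a missing domain. A looser pattern, added after seeing the data, matched 166, with medians of 0.19 and 0.08. By finger number, the medians at 24 and 48 hours were 0.23 and −0.15 for 19 genes with 1 to 6 fingers, 0.16 and 0.04 for 95 with 7 to 12, 0.20 and 0.06 for 90 with 13 to 18, and −0.06 and −0.24 for 16 with 19 or more. Family members are hard to count apart: 94 of the 220 overlap another tested gene, and 54 share at least 5% of their 100-base words with other transcripts. Among the 101 genes with neither, 34.7% rose and 18.8% fell at 24 hours, and 25.7% and 23.8% at 48 hours.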

How the data were processed

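RNA sequencing of SF8628 cells was analysed for 12 libraries in 4 groups of 3. The authors aligned paired reads to hg38 with STAR, counted them per gene with HTSeq-count and normalized them with DESeq2; versions, annotation and strand setting are not given in the sources used here. The deposited values are normalized counts, a linear signal relative to size factors, which were whole reads in 100% of values (tolerance 0.01) once rescaled. Columns of log2 fold changes, their scores and p-values deposited by the authors were not used. Depth per library, in reads on genes, sets the counting error, and 0 columns of per-sample values were left unmapped.

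Genes were matched to GENCODE 44. Those with a mean of at least 10 were tested with limma 3.58.1 (R 4.3.3, eBayes with trend) on log2(normalized count + 1), all 4 groups in 1 fit, with Benjamini-Hochberg adjustment over all 15599 genes and a threshold of 0.05. Errors beside log2 fold changes are standard errors, and fold changes of low genes are understated on this scale. Alternatives were other pseudocounts, minima, scalings, edgeR 4.0.16 and DESeq2 1.42.0 on recovered reads, and leaving out each library. The script was tested on simulated data.

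Named genes were the 8 largest increases and 8 largest decreases at each time (mean of at least 50, passing the test, groups apart), the largest differences between times, the 5 highest per kilobase, those beside the minimum, the member with the largest effect in each sub-cluster, and genes of known role. Members and lists were chosen with earlier results of these data known. KRAB boxes and fingers were found by letter patterns in translated GENCODE transcripts, and promoters came from RefSeq (GRCh38.p14). Libraries of another inhibitor and of chromatin profiling were not analysed here.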

Additional observations from a re-analysis of the deposited data

Results flagged for a closer look

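For 15 of the genes named by the rule, the AZD5153 effect differed between 24 and 48 hours by the limma interaction term (adjusted p under 0.05), given here as the 48-hour minus the 24-hour log2 fold change. More negative at 48 hours were ZNF114 (−1.58), ZNF578 (−1.14), ZNF552 (−0.95), ZNF404 (−0.86), ZNF471 (−0.76), ZNF274 (−0.55), ZNF121 (−0.54) and ZNF587 (−0.43). More positive were ZNF430 (0.92), ZNF569 (0.68), ZNF473 (0.65), ZNF551 (0.64), ZNF714 (0.57), ZNF829 (0.57) and ZNF331 (0.41). ZNF737 (−0.60) and ZNF577 (−0.45), named after their values were seen, also passed that test. Single outlying libraries were not tested.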

How the results depend on the processing

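Under the alternatives, 144 results on named genes were refitted in 3551 settings. None changed sign after a call, 104 of the settings lost a call (in 21 results) and 56 gained one (in 17). Equal totals moved the members' median log2 fold change to 0.034 at 24 hours and −0.14 at 48 hours (41 higher), to −0.16 for the 48-hour minus 24-hour difference and to 0.024 for DMSO with time, and left 3 co-repressor genes higher at 24 hours. Quantile normalization gave medians of 0.32 and 0.30 (101 higher and 27 lower at 48 hours), 0.019 for the difference (17 higher, 13 lower) and −0.16 for DMSO with time (15 and 38). Scaling to stably expressed genes gave 0.11 at 24 hours, −0.04 for the difference (14 and 11) and −0.026 for AZD5153 with time (11 and 12). A minimum log2 change of 1 left 20 higher and 13 lower at 24 hours, 14 and 8 at 48 hours, 0 and 3 for the difference, 4 and 0 for DMSO with time, and 1 and 1 for AZD5153 with time. The median difference was −0.147 with edgeR and −0.155 with a minimum mean of 100. AZD5153 with time had 2 higher with a minimum mean of 100 and 2 with none. Fitting only the groups compared gave 15 higher for DMSO with time and 37 lower for AZD5153 with time. A narrower range of like-expressed genes had medians of −0.19 and −0.25. The cause of these shifts was not tested. Leaving out each library in turn gave 73 to 81 higher and 37 to 44 lower at 24 hours (median 0.13 to 0.18), 54 to 64 and 42 to 60 at 48 hours (median 0.02 to 0.05), 6 to 15 and 13 to 32 for the difference (median −0.14 to −0.08), 13 to 27 and 15 to 26 for DMSO with time (median −0.049 to 0.012), 2 to 8 and 17 to 37 for AZD5153 with time (median −0.13 to −0.10), and for co-repressor genes 5 to 5 and 23 to 24 at 24 hours and 5 to 7 and 17 to 21 at 48 hours. Same-numbered libraries of different groups did not deviate together (r of −0.15 to 0.04, against −0.11 to 0.15 for other numbers). With 3 libraries in a group this cannot exclude that same-numbered libraries were prepared together, and the labels do not say. With a replicate block, 80 were higher and 44 lower at 24 hours, 59 and 49 at 48 hours, 8 and 18 for the difference, 20 and 18 for DMSO with time, and 4 and 23 for AZD5153 with time. With gaps of 0.5 Mb or 2 Mb between sub-clusters, 10 or 6 had at least 3 genes tested, and the ZNF91 sub-cluster held the same genes. Groups of 3 limit what can be called among genes of few counts.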
